A study of Oryza sativa with 8 samples.

Results

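Root tips of dark-grown rice seedlings that received ethylene gas alone were compared with root tips of seedlings labelled as treated with calcium alone. The comparison was made of the 2 libraries labelled ethylene, replicates 3 and 4, against the 2 labelled calcium, replicates 1 and 2, and so used 4 of the 8 RNA-seq libraries of the series. Libraries were chosen by their treatment label and not by any measured value. All were made from poly(A) RNA of seedlings of the variety Dongjin, germinated for 2 days at 37 °C and then kept for 3 days at 28 °C in the dark in closed boxes, and no genetic change is given for any group. The ethylene group received 2 ppm of the gas, and the calcium group is labelled by calcium alone. The other 4 libraries, control replicates 1 and 2 and calcium and ethylene replicates 2 and 3, entered the fit. They took part in the filter, the scaling and the estimate of spread behind the calls, but were on neither side of the comparison. The labels give no calcium chloride concentration and do not say which group had low and which normal calcium. Whether replicates were grown separately is not stated, so p-values speak only of the spread between libraries, part or all of which may be technical.

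Ethylene is a gaseous plant hormone. Its receptors sit in the endoplasmic reticulum membrane and, without the gas, keep a protein kinase of the CTR family active, which holds back the membrane protein EIN2. When ethylene binds, EIN2 passes the signal to transcription factors of the EIN3 and EIL family, which switch target genes in the nucleus. In dark-grown rice seedlings ethylene is known to shorten the root and to lengthen the coleoptile. Calcium is both a cross-link in pectin of the cell wall and an intracellular signal read by calmodulins and calcium-dependent kinases. The series concerns whether rice ethylene receptors also conduct calcium or other cations. Ethylene against calcium changes the gas and the calcium label at once, so within these 4 libraries the parts of the 2 treatments cannot be told apart.

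Library totals were 19099091 and 25907083 counts in ethylene replicates 3 and 4 and 20753587 and 23812792 in calcium replicates 1 and 2. The table lists 57359 gene IDs without names, and none matched a RefSeq gene table of rice, so the levels of receptors, EIN2, root markers and other known genes could not be read. Genes are therefore described by number, level, length and size of change, and 4 IDs are named. Across tested genes, log2 CPM (counts scaled to the library's size) correlated at 0.936 between the ethylene libraries, 0.95 between the calcium libraries and 0.844 to 0.874 between the treatments. Ethylene replicate 3 was closer to calcium and ethylene replicates 2 and 3 (0.96 and 0.972) than to ethylene replicate 4, which correlated with those at 0.912 and 0.922. Of 14349 genes with at least 10 CPM on average in the 4 libraries, the median gap between replicates was 0.26 on the log2 scale in ethylene and 0.24 in calcium. The median gap between the group means was 0.59. A gap of over 2-fold was seen in 5.71% of these genes between the ethylene replicates, in 4.84% between the calcium replicates and in 27% between the group means.

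Ethylene and calcium root tips differed in the level of 28.4% of the genes tested. Of 27008 genes tested, 4177 (15.5%) were higher with ethylene and 3481 (12.9%) were lower, or 7658 genes in all. The genes that rose did so by a median of 1.57 on the log2 scale and those that fell by a median of -1.13. At least 2-fold changes were seen in 3203 rising and 2083 falling genes, at least 4-fold changes in 1484 and 330, and at least 8-fold changes in 795 and 70, so the asymmetry between rises and falls grew with the size of change. Genes without a count in a group entered these numbers at the bound that 3 counts over that group allow, which covers counting error only. In bulk root tips, a change in the number of cells of a type and a change in RNA per cell cannot be told apart. Calls are from edgeR's quasi-likelihood test at a Benjamini-Hochberg adjusted p under 0.05, in a fit of all 8 libraries. Both libraries of one treatment lay above both of the other in every gene called, and in 68.3% of all genes tested.

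The count of calls rested in part on calcium replicate 2 and ethylene replicate 4, falling to 3001 without the former and to 4042 without the latter. It was 5078 in a fit of the 4 libraries alone and 260 when the replicate number entered as a block. The balance of directions moved too: rises were 54.5% of the calls as reported, 93.1% with the block (242 higher, 18 lower), 73.9% with a 2-fold minimum (854 and 302) and 49.9% among genes kept at a mean of at least 10 CPM (3200 and 3219). Ethylene and calcium share no replicate number, so within the 4 libraries compared the numbers cannot be told apart from the treatments. The block compares them through calcium and ethylene replicates 2 and 3, which carry a number of each side. Its added terms leave fewer residual degrees of freedom than the 4 of the fit as reported. Replicate number 4, which only ethylene has, is fitted by a term of its own. The part of these limits in the smaller count with the block was not tested.

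**Figure D1:**
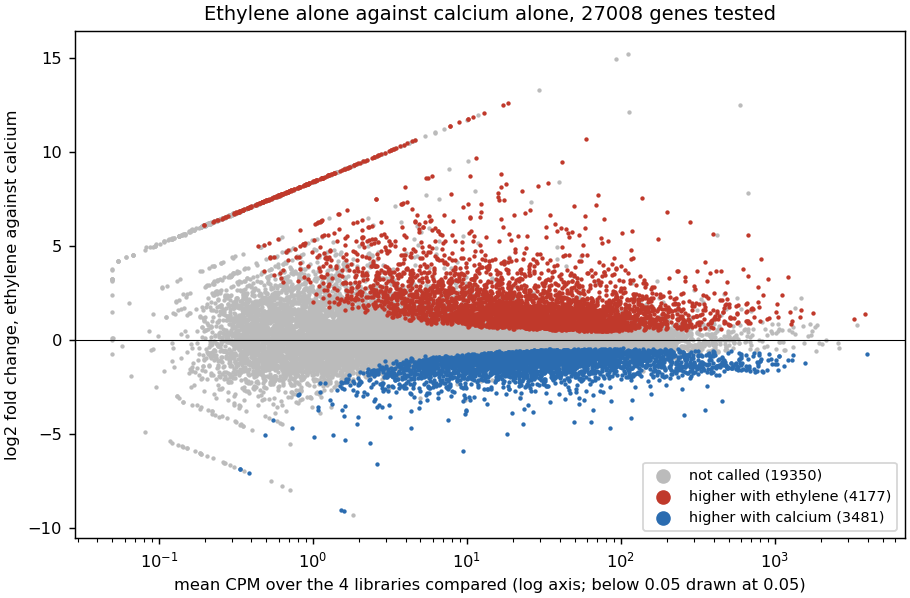
Log2 fold change of ethylene against calcium (vertical axis) plotted against mean CPM over the 4 libraries compared (horizontal log axis), with 1 point for each of 27008 genes. Red points are the 4177 genes that rose and blue points the 3481 that fell. The straight upper line of points holds genes without a count in calcium, whose fitted fold change depends on the prior count.

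The genes that rose and fell were chosen by the difference between ethylene and calcium, so the direction of their shares of counts there follows from that choice. The genes that rose held 29.6% and 35% of all counts in ethylene replicates 3 and 4, and 14% and 11.6% in calcium replicates 1 and 2. In the libraries on neither side of the comparison they held 15.8% ± 1.24 (SD, n = 2) in control and 25.4% ± 1.77 in calcium and ethylene. The genes that fell held 16.4% and 12.7% of counts in the ethylene libraries and 31.4% and 37.1% in the calcium libraries. In control they held 30% ± 1.76 and in calcium and ethylene 18.6% ± 1.99. For both sets the control libraries were thus nearer to calcium and the calcium and ethylene libraries nearer to ethylene.

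The gene with the highest F statistic among the rises that met the naming rule was AGIS_Os08g039640, of 2249 bases. It had 164 and 125 CPM in ethylene replicates 3 and 4, against 10.2 and 8.06 CPM in calcium replicates 1 and 2. It was low in both control libraries, at 14.9 and 11.0 CPM, and high in both calcium and ethylene libraries, at 111 and 118 CPM. The level was 15.8-fold higher with ethylene than with calcium (log2 fold change 3.98, SE 0.24, edgeR adjusted p = 0.000691). The groups did not overlap, which the naming rule required.

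The largest gain in CPM among the rises that met the naming rule was that of AGIS_Os01g048330, of 1259 bases. It ranked 4 by level per length (TPM, counts scaled by gene length and library size) in the 4 libraries. It had 4437 and 6733 CPM in the ethylene libraries and 2753 and 1535 CPM in the calcium libraries. Control held 3023 and 2618 CPM, and calcium and ethylene 1918 and 3692. The ethylene libraries were the highest of all 8, while control, calcium, and calcium and ethylene overlapped. The log2 fold change was 1.38 (SE 0.40, edgeR adjusted p = 0.0338). Its replicates lay far apart, and the call was lost without calcium replicate 2 (log2 fold change 1.02, adjusted p = 0.176), without ethylene replicate 4 (1.05, adjusted p = 0.157), and with the replicate block (0.42, adjusted p = 0.567). It was also lost at nearly the same fold change without control replicate 1 (1.38, adjusted p = 0.0549), without control replicate 2 (1.38, adjusted p = 0.0529), with only the 4 libraries compared (1.39, adjusted p = 0.0697) and with a 2-fold minimum (1.38, adjusted p = 0.385). Adjusted p ran from 0.000469 to 0.567 across 16 alternatives.

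Among the falls that met the naming rule, AGIS_Os04g021030, of 435 bases, had the highest F statistic. It had 2.92 and 4.04 CPM in the ethylene libraries and 42.4 and 58.1 CPM in the calcium libraries. Control held 37.9 and 42.4 CPM and calcium and ethylene 4.69 and 5.86 CPM, so that all 4 libraries with ethylene were low and all 4 without it high. The level was 14.3-fold lower with ethylene than with calcium (log2 fold change -3.84, SE 0.27, edgeR adjusted p = 0.00093).

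The largest loss in CPM among the falls that met the naming rule was that of AGIS_Os04g035670, of 1899 bases, at rank 58 by TPM. It had 1083 and 791 CPM in the ethylene libraries, and 2109.7 and 2326 CPM in the calcium libraries. Control held 1922 and 1995 CPM, close below calcium, and calcium and ethylene 1283 and 1234 CPM, between both sides. The log2 fold change was -1.24 (SE 0.21, edgeR adjusted p = 0.00514). With the replicate block it was -1.02 (edgeR adjusted p = 0.104). Over 16 alternatives adjusted p ran from 1.01e-07 with DESeq2 to 0.307 with edgeR's 2-fold minimum. That minimum tests for a change beyond 2-fold and not for any change.

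**Figure D2:**
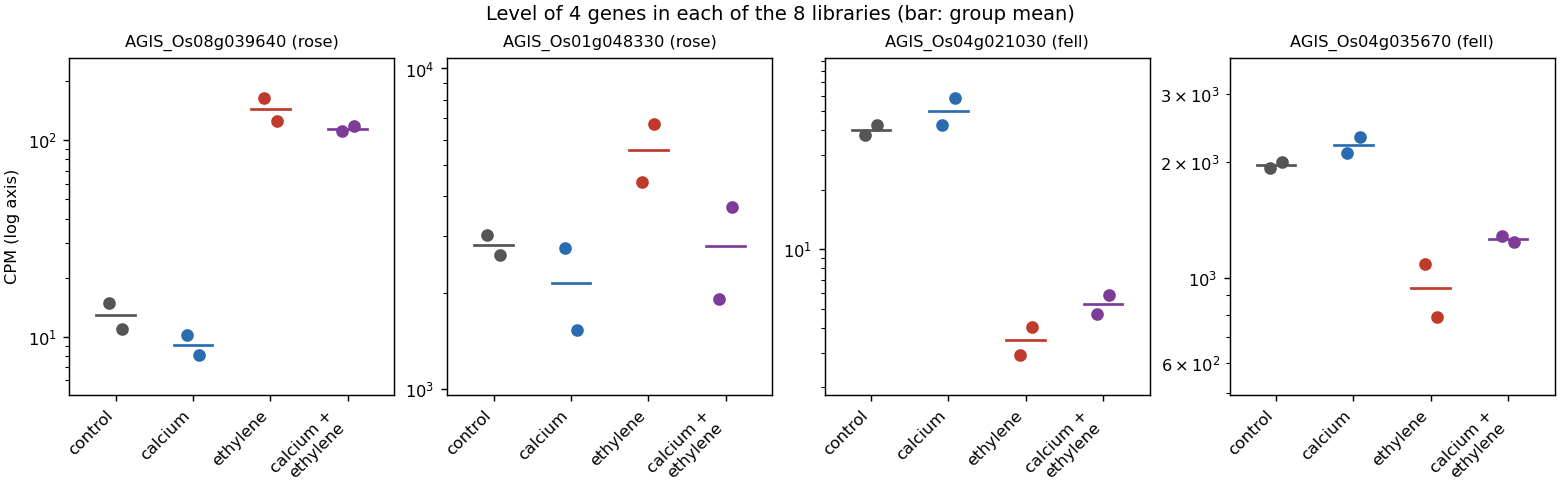
CPM (log axes) of the 4 named genes in each library, with 1 point per library and a bar at the mean of each of the 4 groups. AGIS_Os08g039640 was at 125 and 164 CPM with ethylene and at 8.06 and 10.2 CPM with calcium. The levels of AGIS_Os01g048330 overlap in control, calcium, and calcium and ethylene.

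Both rises and falls made up a larger share of abundant than of scarce transcripts, and rises outnumbered falls except at the highest level. At under 1 CPM, 150 genes rose and 8 fell, and at 1 to 10 CPM, 1044 rose and 629 fell. At 10 to 100 CPM 2487 rose and 2283 fell, while at 100 CPM or more 496 rose and 561 fell. The share called went up with the level in both directions, from 4.71% rising and 0.251% falling at the lowest level to 24.3% and 27.5% at the highest. Ranked by TPM, 198 of the 1000 most abundant transcripts rose (19.8%, against 15.5% of all genes tested) and 374 fell (37.4%, against 12.9%). Of the 100 most abundant, 20 rose and 42 fell. These 1000 transcripts summed to 48.4% and 46.5% of TPM in the ethylene libraries and to 50.2% and 50.6% in the calcium libraries. More of the 1000 fell than rose under 14 of 16 alternatives, the exceptions being the replicate block (31 rose, 6 fell) and a 2-fold minimum (54 rose, 44 fell). Without calcium replicate 2 the numbers were 78 and 249.

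Length went with direction as well. TPM divides by length, so the ranking above favours short genes and both patterns may overlap, which was not tested. The genes that rose had a median length of 1865 bases and those that fell of 1629, against 1754.5 for all genes tested. Tested genes were split by length into 4 classes of near-equal size. Within 10 to 100 CPM, 26.3% of the genes in the shortest class (138 to 1157 bases) fell and 17.5% rose. In the longest class (2495 to 16387 bases), 14% fell and 20% rose. Lengths are those of the deposited table, where 69.6% of all IDs have a length divisible by 3, so many IDs may carry coding sequence alone. In the shortest class more genes fell than rose under 14 of 16 alternatives, other than the replicate block (21 rose, 10 fell) and a 2-fold minimum (74 rose, 70 fell), with 124 rising and 248 falling without calcium replicate 2, and 186 and 294 without ethylene replicate 4.

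**Figure D3:**
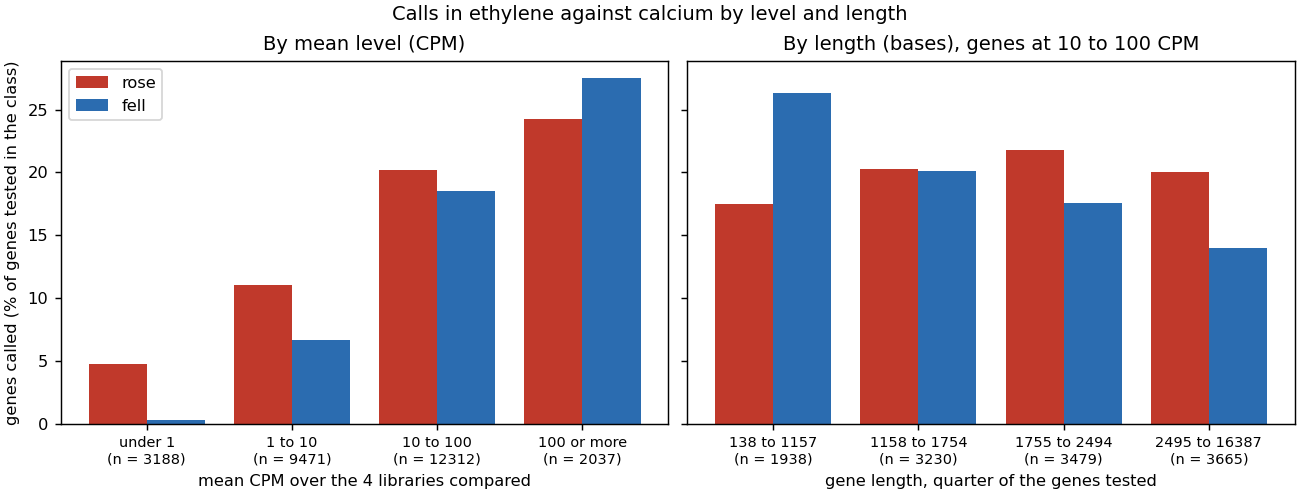
Share of tested genes called (vertical axis, percent) by mean level (left) and, for genes at 10 to 100 CPM, by class of gene length (right), with rises in red and falls in blue. The falling share drops from 26.3% in the shortest class to 14% in the longest, while the rising share stays between 17.5% and 21.8%.

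A small set of genes was read with ethylene and had no count with calcium. In all, 170 of the 27008 genes tested had at least 10 counts in both ethylene libraries and 0 in both calcium libraries. The reverse, at least 10 counts in both calcium libraries and 0 in both ethylene libraries, was seen in 5 genes. The test called 145 of the 170 and all of these 5. Both sets were chosen for that difference, so their counts here are a description. Only 13 of the 170 had at least 10 counts in both control libraries. The 170 had a median of 1.51 CPM in ethylene, at least 22.5-fold above a floor of 3 counts over the calcium group at the median and at least 2454-fold for the highest, which reached 187 CPM. They held 0.101% and 0.051% of the counts of ethylene replicates 3 and 4. In the libraries on neither side, 166 and 165 of the 170 had a count in calcium and ethylene replicates 2 and 3, with 0.0703% and 0.0942% of the counts. In control replicates 1 and 2, 100 and 62 had a count, with 0.00338% and 0.00249% of the counts. Libraries with ethylene also held more genes read once: 1525 and 1202 in the ethylene libraries against 448 and 373 in the calcium libraries, and 30979 and 30729 against 27735 and 28140 genes with any count. The part of this difference in the 170 genes was not tested.

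By the number that follows Os in the ID, the share of genes called ranged from 14.7% to 17% rising and from 10.5% to 15% falling, apart from number 9. Of 2475 tested IDs with number 9, 9.9% rose and 8.24% fell. These IDs had the lowest median level, 4.59 CPM against 7.85 to 16.7 CPM for the other numbers. At 10 to 100 CPM, 22.1% of them rose and 18.9% fell, inside the ranges of the others, 18.9% to 23.7% rising and 15.4% to 20.7% falling. Of the genes that rose, 21.2% were followed by a tested ID that also rose, against 15.5% of all genes tested, and of those that fell 16.1% were followed by one that fell, against 12.9%.

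The longest unbroken stretch of tested IDs that fell held 14 genes of 564 to 1347 bases, within 21 consecutive IDs of number 10. It was picked after its values were seen. Their summed level was 283 and 231 CPM in ethylene replicates 3 and 4, and 1394 and 3826 CPM in calcium replicates 1 and 2. Control held 1519 and 2035 CPM and calcium and ethylene 391 and 383 CPM, so all libraries with ethylene were below all without. Calcium replicate 2 stood above the other 7 libraries. Log2 fold changes of the 14 ran from -5.94 to -2.40 (edgeR adjusted p from 0.00385 to 0.0283), and all 14 were called, as were 8 of them without calcium replicate 2, 7 and 5 without ethylene replicates 3 and 4, 5 without the filter on low counts and 1 with the replicate block. Whether these IDs are near-identical copies that share reads is not known from the table. The longest rising stretch held 9 genes of number 7, with log2 fold changes of 1.06 to 4.24.

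Calcium and ethylene against control shares no library with ethylene against calcium, and ethylene is on the same side in both, while calcium changes sides. Set against each other, these comparisons show how the genes called here stood in libraries on neither side of ethylene against calcium. In calcium and ethylene against control 1378 genes (5.1%) were higher and 1281 (4.74%) lower, or 9.85% of those tested. Both comparisons called 2041 genes in the same direction, 1158 rising and 883 falling, which is 26.7% of the calls in ethylene against calcium and 76.8% of those in calcium and ethylene against control. The dispersions of both came from the same fit. The calls of calcium and ethylene against control were far fewer with any 1 of its 4 libraries left out. Each such fit leaves a group with 1 library, and the part of that in the loss of calls was not tested.

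Of the 4177 genes that rose in ethylene against calcium, 92.3% had a fold change above 0 in calcium and ethylene against control, with a median of 0.80 on the log2 scale. Of the 3481 that fell, 97.1% were below 0 there, with a median of -0.64. Over both directions the median signed change was 0.70, and 94.5% had the same sign, against 77.3% of all genes tested. These genes were picked in ethylene against calcium, and the part of that picking in the smaller change elsewhere was not tested. In reverse, the genes called in calcium and ethylene against control had a median size of 1.39 there and a median signed change of 1.39 in ethylene against calcium. Taken across the 27008 genes, which do not count as replicates, the correlation between both sets of fold changes was 0.704 by Pearson's and 0.680 by Spearman's measure.

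**Figure D4:**
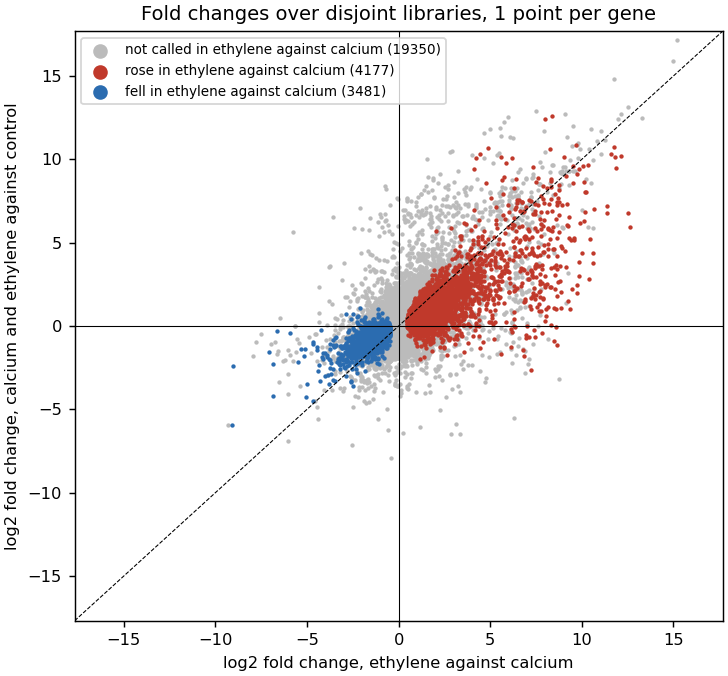
Log2 fold change of calcium and ethylene against control (vertical axis) plotted against that of ethylene against calcium (horizontal axis), with 1 point per tested gene and the line of equal change dashed. Red points rose and blue points fell in ethylene against calcium. Of the red points 92.3% lie above 0 and of the blue points 97.1% lie below 0 on the vertical axis.

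Group by group, calcium and ethylene root tips lay between calcium and ethylene in most called genes, and so did control. The genes were chosen for the distance between ethylene and calcium, so other groups tend to fall between these. Mean log2 CPM of calcium and ethylene lay between them in 81.4% of the genes that rose (3401 of 4177). For those that fell it was 88.6% (3083 of 3481). Control lay between them in 3521 of the genes that rose and 3124 of those that fell. Calcium and ethylene lay past ethylene in 17.6% and 11.4%. Ethylene replicate 4 correlated less with the calcium and ethylene libraries than replicate 3 did, and its part in this order was not tested. Control was nearer to calcium than to ethylene in 91.1% of the genes that rose and in 95.6% of those that fell. For the genes that rose, the median distance above calcium was 0.29 in control, 1.12 in calcium and ethylene and 1.55 in ethylene. For those that fell the median distances were -0.19, -0.84 and -1.13. These distances all use the calcium libraries, which helped to choose the genes.

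The difference between ethylene against calcium and calcium and ethylene against control was tested for each gene. Any effect of ethylene common to both comparisons cancels in it. What remains is control over calcium added to ethylene over calcium and ethylene, on the log2 scale. It thus sums the gap between the calcium labels over both ethylene states and does not test whether the treatments interact. EdgeR called no gene (0%). Its lowest adjusted p was 0.154. Unadjusted p-values under 0.05 were found in 2679 genes, where chance would give 1350. DESeq2 called 347 genes, 308 of them with the higher value in ethylene against calcium, and edgeR called 277 when genes with low counts were kept. Among the 14349 genes with 10 CPM or more, the 95% interval of this difference lay within 2-fold in either direction for 41.4%, so for most a 2-fold difference could not be set aside. Among the named genes the difference was 0.83 (SE 0.31) for AGIS_Os08g039640, 1.39 (SE 0.56) for AGIS_Os01g048330, -0.91 (SE 0.35) for AGIS_Os04g021030 and -0.61 (SE 0.30) for AGIS_Os04g035670 on the log2 scale, with edgeR adjusted p from 0.474 to 0.532.

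In 5 genes the calls of both comparisons went in opposite directions, all higher with ethylene than with calcium (log2 fold change 0.61 to 1.37) and lower with calcium and ethylene than with control (-1.99 to -0.59). These genes, which have no name, were picked by that contrast after the values were seen. The gene with the lowest p of the difference had 35.4 and 32.9 CPM in the ethylene libraries, 38.2 and 27.5 in control, 17.1 and 13.8 in calcium and 8.6 and 7.94 in calcium and ethylene. In 4 of the 5, all libraries with calcium were below all libraries without it. The choice of these genes fixes part of that order, and the share of all genes tested with it is not given here. The test of the difference did not call any of them (edgeR adjusted p from 0.154 to 0.384), and 0 genes fell in ethylene against calcium and rose in calcium and ethylene against control.

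**Figure D5:**
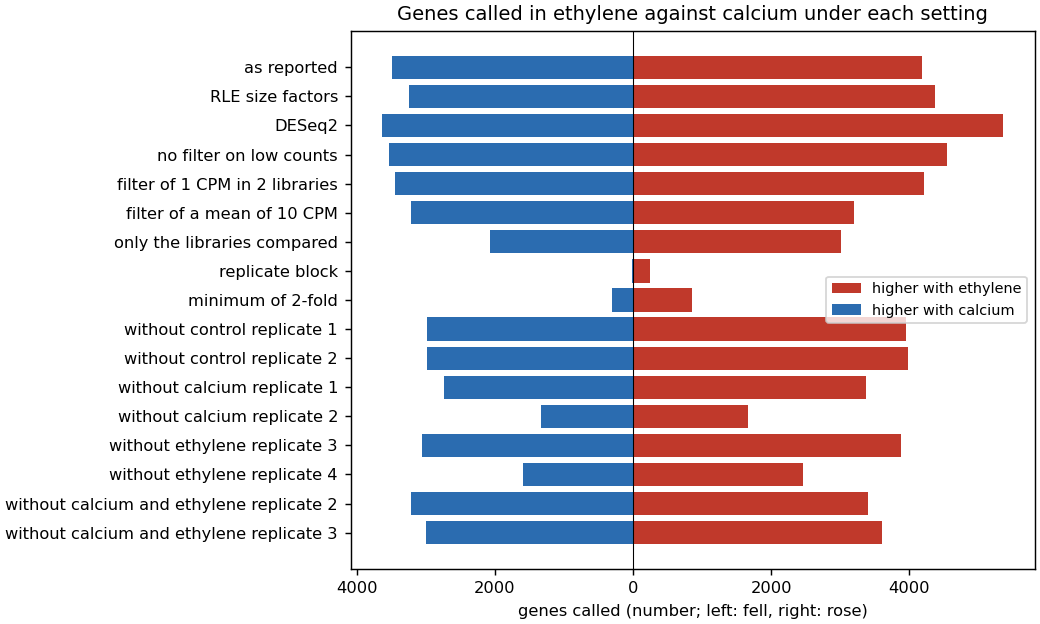
Number of genes called in ethylene against calcium (horizontal axis) under each setting, with rises to the right in red and falls to the left in blue. The total runs from 260 with the replicate block to 8995 with DESeq2, and was 3001 without calcium replicate 2 and 4042 without ethylene replicate 4.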

How the data were processed

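The authors deposited a table of whole-number counts per gene and library, with a length in bases per gene, for which the submitters' processing notes name fastp and featureCounts without versions. For the aligner, genome build, annotation version and strand setting the entry is: not given in the sources used here. Reads of overlapping, antisense or near-identical genes therefore cannot be told apart. None of the 57359 IDs matched a RefSeq table of 39387 rice genes.

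The tools were R 4.3.3, edgeR 4.0.16 and limma 3.58.1, with these steps: filterByExpr with a minimum count of 10 (27008 genes, 99.9% of counts), TMM, and 1 robust quasi-likelihood model of 4 groups with 4 residual degrees of freedom, over all 8 libraries to share the estimate of spread. P-values were adjusted by Benjamini-Hochberg over all genes tested. Standard errors came from the fold change and its F statistic, and a prior count of 2 was used for log2 CPM. The fit was also run on simulated counts in which few genes changed, unlike these data, and no result here rests on that run. CPM use TMM library sizes. Named genes had an adjusted p under 0.05, a log2 size of at least 1, at least 10 counts in all 4 libraries and no overlap, and were then taken by F statistic and by CPM difference. The planned gene lists of ethylene and calcium genes could not be filled. The comparison, rules and lists were chosen with earlier results of these data known. DESeq2 1.42.0 was an alternative, and figures used Python 3.11.15 and matplotlib 3.10.9. Totals ran from 19099091 to 25907083 counts.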

Additional observations from a re-analysis of the deposited data

How the results depend on the processing

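In ethylene against calcium the number of calls went from 7658 to 5078 in a fit of only the 4 libraries compared, 1156 with a 2-fold minimum, 260 with the replicate block and 3001 to 6965 with 1 library left out. In calcium and ethylene against control the number went from 2659 to 4940 with DESeq2, 4400 without the filter on low counts, 4412 with only the 4 libraries compared, 89 with a 2-fold minimum and 49 to 3771 with 1 library left out. The difference between these comparisons, with 0 calls, had 347 with DESeq2, 277 without the filter and 0 to 69 with 1 library left out, 69 without ethylene replicate 3 and 20 without control replicate 2. The median signed change of 0.70 was 0.59 with a filter of 10 CPM, 0.86 with only the libraries compared, 2.56 with the block, 1.53 with a 2-fold minimum and 0.66 to 1 with 1 library left out. A group left with 1 library is assumed to vary like the others. RLE size factors moved the median fold change of all genes by 0.03 on the log2 scale. Some of these fits hold fewer genes or libraries. For the rest the cause was not tested.

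The replicate numbers do not pair the libraries compared: ethylene has 3 and 4 and calcium 1 and 2, and the number 4 occurs nowhere else. With the replicate block, ethylene is in effect represented by replicate 3. Under 16 alternatives, AGIS_Os08g039640 and AGIS_Os04g021030 kept the call in all, AGIS_Os01g048330 lost it in 7 and AGIS_Os04g035670 in 2, and 0 values changed sign. For both genes that lost calls, the settings include the 2-fold minimum, which tests for a change beyond 2-fold. The alternatives for the 1000 most abundant transcripts, the shortest genes and the stretch of 14 genes were chosen with the data already seen. Under 1 CPM, 4.71% of genes were called rising and 0.251% falling, and the part of depth in these shares was not tested.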
